A study of Mus musculus with 4 samples.

Results

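Messenger RNA of 10 growth factor genes outside the neurotrophin family was followed in the mouse hippocampus after chronic fluoxetine: Vegfa, Fgf1, Fgf2, Fgf9, Igf1, Igf2, Nrg1, Nrn1, Tgfb2 and Gdnf. The members are all probesets (sets of array probes against 1 transcript region) whose only annotated gene symbol is one of these, which gave 21 probesets of 45037. The treated group was male DBA/2J mice, an inbred strain, that took fluoxetine, a blocker of serotonin reuptake, in their drinking water at 18 mg/kg per day for 21 days. The control group was male DBA/2J mice on untreated water (0 mg/kg). The samples are labelled as 8 to 10 weeks old in both groups, and the design text also describes a tail suspension test. Each group had 12 mice, 6 to each of 2 RNA pools, with 1 Affymetrix whole-genome mouse array for each pool. A pool value is thus an average over 6 animals, and variation between single mice is not seen.

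The members act through different receptors. Vegfa signals through the tyrosine kinases Kdr and Flt1 and drives vessel growth, the Fgf genes encode ligands of the Fgfr kinases, and Igf1 and Igf2 bind Igf1r while soluble Igfbp proteins hold them outside the cell. Nrg1 acts on Erbb kinases, Gdnf on Gfra1 with Ret, and Tgfb2 on the serine-threonine kinases Tgfbr2 and Tgfbr1. Nrn1, neuritin, is an activity-regulated protein on the neuronal surface that promotes growth of neurites and maturation of synapses. Several of these factors act on newborn neurons of the rodent dentate gyrus and have been studied with antidepressants for that reason.

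Values are intensities on a linear scale, and the submitters took 100 as the minimum for expression above background. Between 16612 and 16866 probesets per array reached it. All 10 neuronal marker genes chosen for the hippocampus reached the minimum in at least 2 arrays, with no other brain region to compare. At their brightest probesets 0 rose and 1 fell, the granule cell gene Dsp, beside 1.31% and 0.554% of all tested genes. Calb1, calbindin, also a granule cell gene, was at log2 -0.45 ± 0.08 there (adjusted p = 0.0771 by limma) and fell at another probeset (-1.16 ± 0.14, adjusted p = 0.0436). Choroid plexus genes differed between pools within both groups: Ttr, the transthyretin gene, was at 51101 and 4429 in fluoxetine pools 1 and 2, against 37856 and 2002 in control pools 1 and 2. All 18 spike-in probesets, whose RNA is added during processing, were higher in both fluoxetine arrays, by log2 0.36 at the median, against -0.04 for the tested probesets. No order of hybridisation is stated in the labels, so array processing and treatment cannot be told apart. The small number of arrays limits the precision.

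None of the 10 growth factor genes passed the test for a difference between fluoxetine and control pools. Of 21 member probesets 11 reached 100 in at least 2 arrays and were tested, and they covered 7 genes. All 11 reached 100 in all 4 arrays. By limma, 0 of the 11 passed a Benjamini-Hochberg adjusted p under 0.05 in either direction, where 1.72% of all 16938 tested probesets did. At an unadjusted p under 0.05 there were 3, for Nrn1, Igf1 and Fgf1, all higher in fluoxetine pools, and 22.5% of all tested probesets met that mark. No member reached the 2-fold ratio the submitters used, which 0.791% of tested probesets did. Both fluoxetine pools lay above both control pools at 5 member probesets (at Vegfa by almost nothing), where 21.9% of all tested probesets did so, and below both at 2, where 34.2% did. The groups overlapped at the other 4. The median log2 fold change over the 11 was 0.12, beside -0.04 over all tested probesets.

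**Figure D1:**
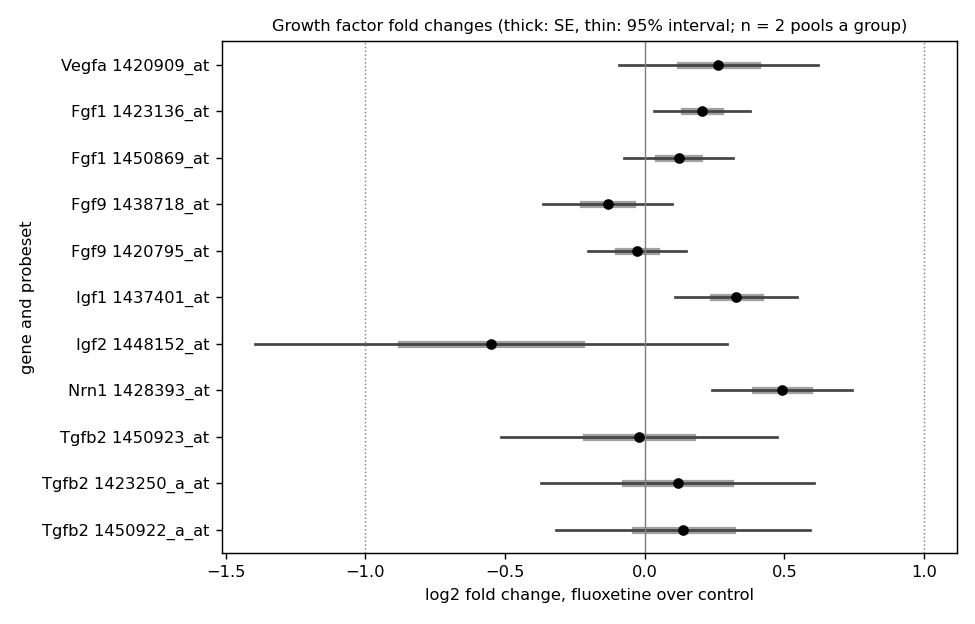
Log2 fold change of fluoxetine over control (horizontal axis) for the 11 tested growth factor probesets (vertical axis), with limma standard errors as thick bars, 95% intervals as thin bars and dotted lines at 2-fold. Nrn1 stands highest at 0.49 and Igf2 lowest at -0.55, with the widest interval of all.

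**Figure D2:**
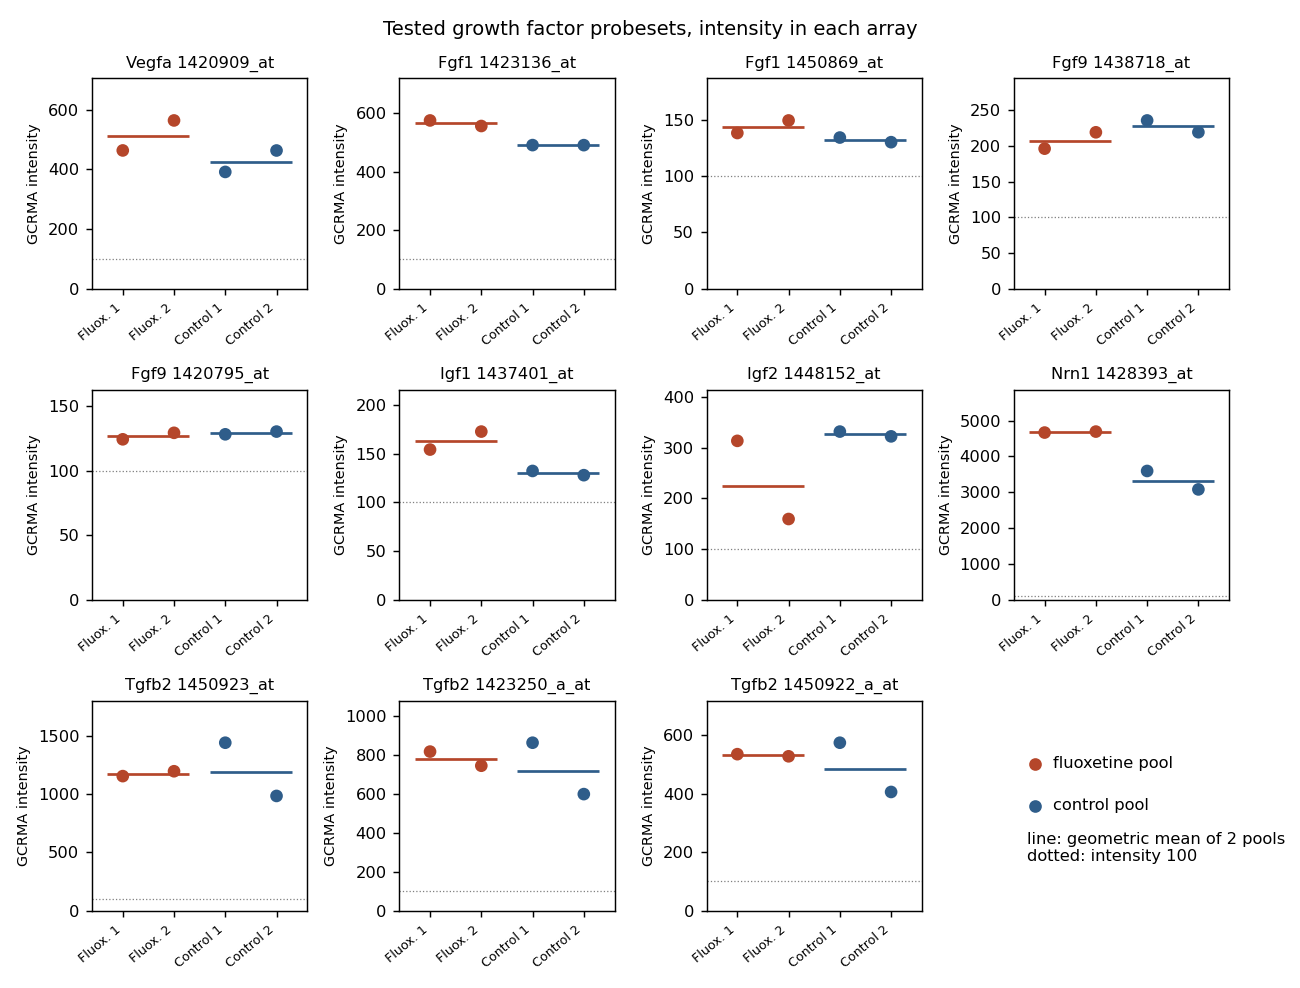
GCRMA intensity (vertical axes, linear, from 0) of each tested growth factor probeset in the 2 fluoxetine and 2 control pools, with the geometric mean of each group as a line. The groups are apart at Nrn1, Igf1 and both Fgf1 probesets, the nearest pools of the groups are level at Vegfa, a single fluoxetine pool is low at Igf2, and the control pools are far apart at the 3 Tgfb2 probesets.

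Nrn1 came nearest to the threshold. Its only probeset, 1428393_at, was at 4664 and 4691 in the fluoxetine pools, against 3592 and 3077 in the control pools. Both fluoxetine pools were higher than both controls and nearly equal to each other, and the controls differed by log2 0.22. The means were 4678 in fluoxetine and 3324 in control pools, a log2 difference of 0.49 ± 0.10 (limma SE, n = 2 pools per group) with a 95% interval from 0.24 to 0.74 and an adjusted p of 0.0851. This corresponds to 40.7% more signal, with a ratio between 1.18 and 1.67. Of all tested probesets 5.29% had a larger absolute difference. With limma's trend and robust settings, chosen as an alternative, Nrn1 did pass (adjusted p = 0.0451), while it did not in the other 12 alternatives, where adjusted p ran from 0.0588 to 0.272.

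Igf1 was higher in both fluoxetine pools at the only one of its 4 probesets that was measurable, without passing the test. It encodes insulin-like growth factor 1, a growth hormone target that several brain cell types, microglia among them, also make locally. That probeset, 1437401_at, was the only one to reach the minimum of 100, with 154 and 173 in fluoxetine pools and 132 and 128 in control pools. Its log2 difference was 0.33 ± 0.08 (95% interval 0.11 to 0.55) and did not pass by limma (adjusted p = 0.125). The other 3 probesets lay under 100 in all arrays, so no fold is given for them and no order is read from them. Of these, 1434413_at was at 85.6 and 71.3 in fluoxetine pools and 70.1 and 63.6 in control pools. Probeset 1419519_at was at 24.7 and 19.9 in fluoxetine pools and 15.5 and 18.5 in control pools, and 1452014_a_at at 7.92 and 8.32 in fluoxetine pools and 7.32 and 7.35 in control pools. 

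Markers of microglia, one of the cell types that make Igf1, were higher in the same arrays. All 10 tested genes of that list had a log2 fold change above 0, where 43.5% of all tested genes did. By limma 5 rose (C1qb, Tyrobp, C1qa, Cd53 and Ctss) and 0 fell, beside 1.31% and 0.554% of all tested genes. Their summed intensity was 12105 and 11747 in fluoxetine pools, against 7732 and 7455 in control pools. The largest difference, that of Ly86, was log2 1.13 ± 0.19 and did not pass (adjusted p = 0.0692 by limma). Examples of those that rose are the complement genes C1qb (log2 1.10 ± 0.08, adjusted p = 0.0252) and C1qa (log2 0.79 ± 0.09, adjusted p = 0.0400). The homeostatic marker P2ry12 was at log2 0.15 ± 0.10 and did not pass (adjusted p = 0.418). The part of microglia in the Igf1 values was not tested. In bulk RNA of this kind, more cells of a type and more RNA per cell cannot be told apart.

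**Figure D3:**
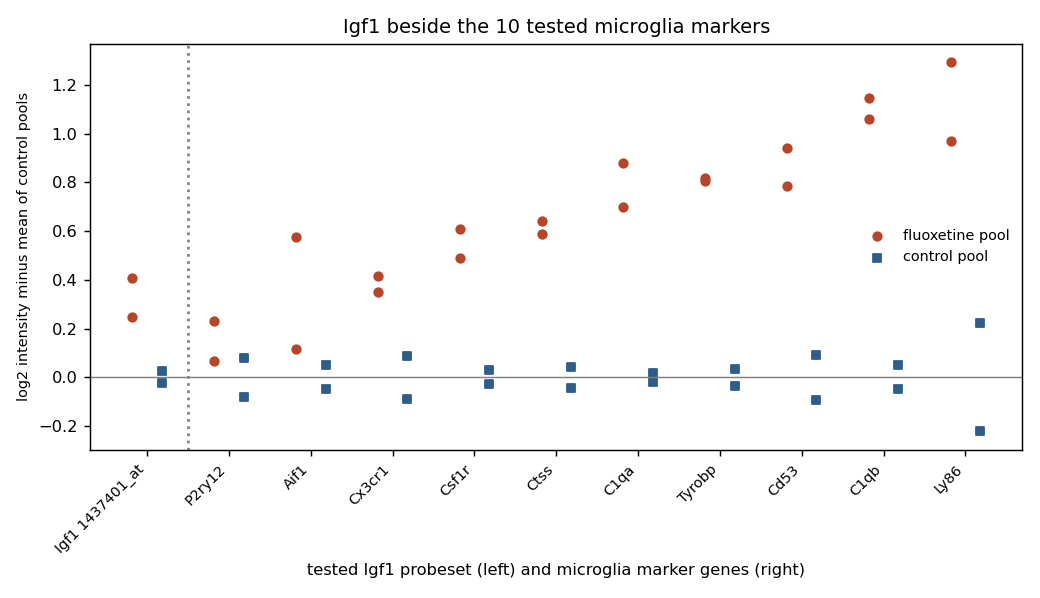
Log2 intensity of each pool minus the mean of the control pools (vertical axis) for the tested Igf1 probeset and the 10 tested microglia marker genes (horizontal axis), fluoxetine pools as circles and control pools as squares. The fluoxetine pools lie above the control pools at Igf1 and at 9 of the 10 markers, P2ry12 being the exception.

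Among the fibroblast growth factors, Fgf1 lay slightly higher and Fgf9 slightly lower in fluoxetine pools, and neither passed the test. Fgf1 encodes acidic FGF, a ligand without a classical signal peptide that binds all Fgfr kinases. At 1423136_at it was at 576 and 557 in fluoxetine pools and at 492 and 491 in control pools, so the groups did not overlap. The log2 difference of 0.20 ± 0.07 did not pass (95% interval 0.03 to 0.38, adjusted p = 0.174 by limma). At a second probeset, 1450869_at, Fgf1 was at 138 and 150 in fluoxetine pools and at 134 and 130 in control pools (log2 0.12 ± 0.07, adjusted p = 0.398). The third, 1441042_at, lay between 4.75 and 4.96 in all arrays, far below the minimum.

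Fgf9, which encodes a secreted FGF made by neurons, was at 196 and 219.3 in fluoxetine pools and at 236 and 219.4 in control pools at 1438718_at. The second fluoxetine pool and the second control pool were almost equal. The log2 difference was -0.13 ± 0.09 (95% interval -0.36 to 0.10, adjusted p = 0.429 by limma). At 1420795_at Fgf9 was at 124 and 129 in fluoxetine pools and at 128 and 130 in control pools. That is log2 -0.03 ± 0.07 (adjusted p = 0.837), whose sign turned under quantile normalization and median centring. Fgf2, basic FGF, had 1 probeset, which lay between 5.25 and 5.43 in all arrays, so its level was not measurable here.

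Feedback genes induced by FGF and other kinase signals were examined next. Of 10 tested (14 annotated) 0 passed in either direction by limma (3 at an unadjusted p under 0.05), 4 were higher and 3 lower without overlap (23.6% and 32.7% of all tested genes were), and the median log2 fold change was 0.14, beside -0.03 over all 9030 tested genes. Spry2, an inhibitor induced by FGF signals, was at 903 and 1434 in fluoxetine pools and at 798 and 766 in control pools (log2 0.54 ± 0.23, adjusted p = 0.250). The phosphatase gene Dusp4 was at log2 0.49 ± 0.10 (adjusted p = 0.0867), and Etv5, a transcription factor induced by FGF, lay in the other direction at -0.38 ± 0.08 (adjusted p = 0.0926).

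Vegfa averaged higher in fluoxetine pools, by about as much as the pools of each group differed among themselves. At 1420909_at it was at 463.1 and 564 in fluoxetine pools and at 391 and 462.9 in control pools. The lower fluoxetine pool and the higher control pool were nearly equal. Pools of 1 group differed by log2 0.28 in fluoxetine and 0.24 in control samples, with pool 2 the higher in both. The group difference of log2 0.26 ± 0.14 did not pass (95% interval -0.09 to 0.62, adjusted p = 0.327 by limma). The other probeset, 1451959_a_at, was under 100 in all arrays, at 38.9 and 49.8 in fluoxetine pools and 44.7 and 44.6 in control pools.

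Vegfa is a classical target of hypoxia, and 13 other hypoxia-inducible or hypoxia-sensing genes were tested, of 17 annotated. Of these 0 rose and 1 fell, beside 1.31% and 0.554% of all tested genes, and the list median was -0.07. The one that fell, Ndrg1, a gene also strongly expressed in oligodendrocytes, was at 827 and 798 in fluoxetine pools and at 1189 and 1192 in control pools (log2 -0.55 ± 0.07, adjusted p = 0.0439 by limma). All 5 of its tested probesets were lower. The 8 tested oligodendrocyte markers had 0 calls by limma, 0 at an unadjusted p under 0.05 and a median of -0.04. Without overlap 1 was higher and 3 were lower (23.6% and 32.7% of all tested genes were). The part of oligodendrocytes in the Ndrg1 values was not tested. The glycolytic regulator gene Pfkfb3 (log2 0.51 ± 0.15, adjusted p = 0.152) and the lactate dehydrogenase gene Ldha (log2 0.21 ± 0.07, adjusted p = 0.177) lay on the high side and did not pass.

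Igf2 had the largest absolute difference of the 7 tested genes, and 1 array carried it. Igf2 encodes insulin-like growth factor 2, an imprinted gene whose adult brain expression is known mainly from the choroid plexus and the meninges. At 1448152_at it was at 314 and 159 in fluoxetine pools 1 and 2, against 332 and 323 in control pools. Fluoxetine pool 1 was close to the controls and fluoxetine pool 2 was far below all others. The log2 difference was -0.55 ± 0.32 (95% interval -1.39 to 0.29, adjusted p = 0.379 by limma). It was -0.06 without fluoxetine pool 2 and -1.04 without fluoxetine pool 1. The fluoxetine pools differed by log2 0.98, a gap that only 0.154% of tested probesets exceeded, while the control pools differed by 0.04. A second probeset, 1415931_at, lay between 6.50 and 6.52 in all arrays.

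The choroid plexus genes that could be tested, Ttr and Kl, were lower in pool 2 than in pool 1 of both groups, and Igf2 was so in the fluoxetine group, with its control pools nearly level. These 2 genes summed to 51221 and 4460 in the fluoxetine pools and to 37976 and 2050 in the control pools, nearly all of it Ttr, and 10 of the 13 annotated genes of that list were under 100 in all arrays. Kl, the klotho gene, was at 120 and 31.7 in fluoxetine pools and at 120 and 49.0 in control pools. Of 9 tested meninges and fibroblast genes 2 passed on the high side by limma and 0 on the low side, beside 1.31% and 0.554% of all tested genes. These were Bgn and Col3a1, and Col3a1 entered the test through its fluoxetine pools alone (239 and 223 in fluoxetine pools, 59.0 and 56.4 in control pools, under the minimum). Of the 9, 3 were lowest in fluoxetine pool 2 (Aldh1a2, Fmod and Mgp), 3 in control pool 1 and 3 in control pool 2. Of all tested probesets 33.6%, 17.4% and 23.8% were lowest in these arrays. As an example, Mgp was at 447 and 281 in fluoxetine pools and at 408 and 474 in control pools. The summed level of the meninges list was 4408 and 4191 in fluoxetine pools and 3087 and 4309 in control pools. Much of it was Dcn, at 2288 and 2522 in fluoxetine pools and 1724 and 2570 in control pools. The part of meningeal or plexus tissue in the Igf2 values was not tested.

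The genes whose pattern over the 4 arrays was nearest to that of Igf2, by Euclidean distance of log2 values after the control mean was subtracted, were Mettl8 (distance 0.22), Macrod1 (0.24) and Inpp5e (0.25), among 9029 other genes. This choice fixes a low fluoxetine pool 2, which was at 76.9, 111 and 72.1, so that Mettl8 and Inpp5e were under the minimum there.

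**Figure D4:**
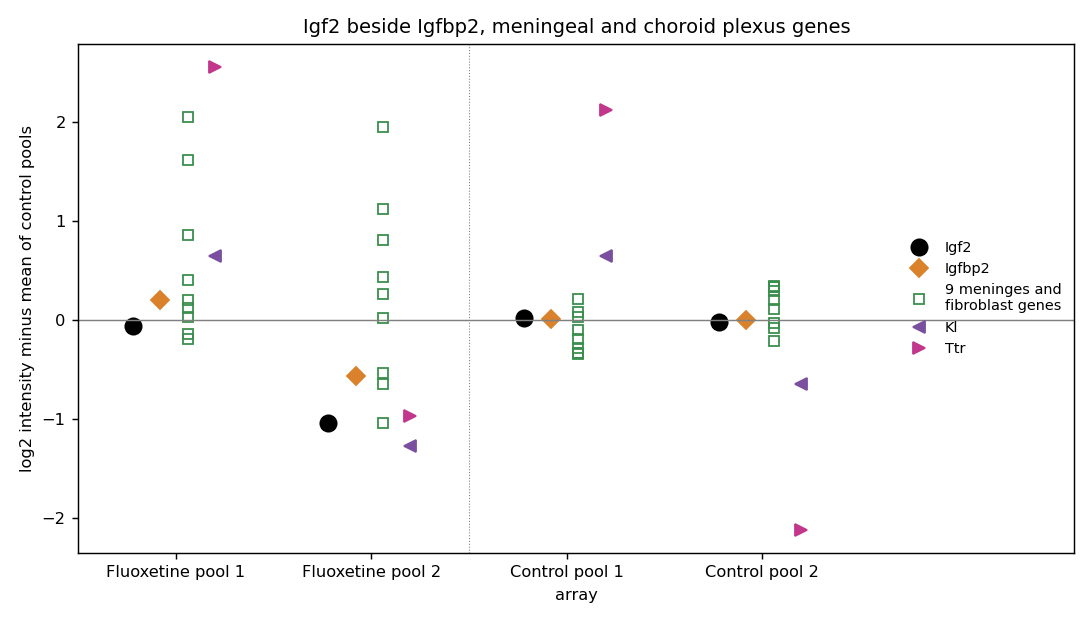
Log2 intensity minus the mean of the control pools (vertical axis) in each of the 4 arrays (horizontal axis) for Igf2, Igfbp2, the 9 tested meninges and fibroblast genes, and the choroid plexus genes Kl and Ttr. Igf2 and Igfbp2 are lowest in fluoxetine pool 2 and level between control pools, and Ttr and Kl are low in pool 2 of both groups.

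The list of insulin-like growth factor binding proteins, proteases such as Htra1 and related genes gave 0 calls by limma. Of 15 annotated genes 7 were tested (2 at an unadjusted p under 0.05). Without overlap 4 were higher and 0 lower (23.6% and 32.7% of all tested genes were), with a median log2 of 0.11. Igfbp7, a gene typical of blood vessel cells, was at 453 and 355 in fluoxetine pools and at 210.5 and 198 in control pools (log2 0.97 ± 0.13), just short of the threshold (adjusted p = 0.0520 by limma). Igfbp6, which prefers Igf2, was at 379 and 366 in fluoxetine pools and at 185 and 241 in control pools (log2 0.82 ± 0.14, adjusted p = 0.0707). Igfbp2 was at 431 and 253 in fluoxetine pools and 376 and 374 in control pools (log2 -0.18 ± 0.26, adjusted p = 0.708). It shared with Igf2 a low fluoxetine pool 2 and level control pools. Its fluoxetine pool 1 was the highest array, while that of Igf2 lay below both control pools. The 7 tested endothelial and mural markers summed to 4992 and 4815 in fluoxetine pools and to 3904 and 3766 in control pools, much of it Rgs5 (2660 and 2648 in fluoxetine pools, 1768 and 1761 in control pools). Of the 7, 2 rose by limma (Rgs5 and Abcc9) and 0 fell, beside 1.31% and 0.554% of all tested genes. Acta2 lay on the low side without passing (log2 -0.27 ± 0.08, adjusted p = 0.165). Their part in the Igfbp7 values was not tested. The receptor genes Igf1r (log2 -0.11 ± 0.09, adjusted p = 0.507) and Igf2r (log2 -0.23 ± 0.09, adjusted p = 0.235) did not pass.

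Tgfb2, transforming growth factor beta 2, passed at none of its probesets by limma, and its control pools lay far apart. At its brightest probeset, 1450923_at, it was at 1155 and 1197 in fluoxetine pools and at 1442 and 985 in control pools. At 1423250_a_at it was at 816 and 743 in fluoxetine pools and at 861 and 598 in control pools, and at 1450922_a_at at 535 and 528 in fluoxetine pools and at 574 and 406 in control pools. Control pool 1 was the highest and control pool 2 the lowest array at all 3. The control pools differed by log2 0.55, 0.53 and 0.50, gaps exceeded by 1.29%, 1.52% and 1.83% of tested probesets. The group differences were log2 -0.02 ± 0.19, 0.12 ± 0.19 and 0.14 ± 0.17 (adjusted p = 0.963, 0.744 and 0.673 by limma). All 3 turned sign with 1 or the other control pool left out. The 95% interval at the brightest probeset ran from -0.51 to 0.48. The fourth probeset, 1438303_at, was at 17.9 and 16.3 in fluoxetine pools and at 20.6 and 16.3 in control pools, below the minimum.

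Downstream of the ligand, Tgfbr2, the receptor subunit that binds it, rose. It was at 598 and 487 in fluoxetine pools and at 291 and 296 in control pools, a log2 difference of 0.88 ± 0.12 (adjusted p = 0.0486 by limma). Tgfbr1, its signalling partner, was at log2 -0.13 ± 0.09 (adjusted p = 0.438), and the co-receptor gene Tgfbr3 at -0.38 ± 0.15 (adjusted p = 0.225). Of 13 tested TGF-beta signalling and target genes (18 annotated) 1 rose and 0 fell (1.31% and 0.554% of all tested genes did), 7 were higher and 3 lower without overlap (23.6% and 32.7%), and the median was 0.10. The riser was Id3, an inhibitor of helix-loop-helix transcription factors that responds to BMP and TGF-beta signals, at 838 and 795 in fluoxetine pools and 501 and 481 in control pools (log2 0.73 ± 0.07, adjusted p = 0.0352). Ltbp3, a binding protein of latent TGF-beta, was at log2 0.56 ± 0.11 (adjusted p = 0.0851) and Id1 at 0.51 ± 0.09 (adjusted p = 0.0755), neither of which passed. The summed microglial and vascular marker levels given above moved with Tgfbr2, a gene those cells express, and their part in it was not tested.

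Nrg1 and Gdnf were not measurable with these probesets. Nrg1, neuregulin 1, was at 14.7 and 14.9 in fluoxetine pools and at 14.8 and 14.8 in control pools at its only probeset. Gdnf, the glial cell line-derived neurotrophic factor, was at 4.22 and 4.26 in fluoxetine pools and at 4.22 and 4.22 in control pools. Values at this level carry no order, and they do not show that the genes are silent. The Erbb2, Erbb3 and Erbb4 probesets were under 100 in all arrays too, while Egfr was at log2 0.06 ± 0.11 (adjusted p = 0.788).

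Ret, the kinase through which Gdnf and its relatives signal, reached the minimum in the fluoxetine pools alone. It was at 165 and 219 in the fluoxetine pools, against 72.1 and 68.8 in the control pools, which were both under the minimum, so it entered the test only through the group where it was high. Set against 100, it was at least 1.90-fold higher (adjusted p = 0.0380 by limma for the measured values), and with values under 100 raised to 100 it did not pass (adjusted p = 0.0648). The ligand-binding co-receptor genes Gfra1 (log2 0.01 ± 0.23, adjusted p = 0.979) and Gfra2 (log2 -0.10 ± 0.25, adjusted p = 0.847) did not pass.

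Across the 26 annotated receptor genes 19 were tested. Of these 2 passed on the high side, Tgfbr2 and, with the limit just given, Ret, and 0 fell (1.31% and 0.554% of all tested genes did), 6 were higher and 5 lower without overlap (23.6% and 32.7%), and the median was 0.02. Ret and Flt1 are among the 6, and both entered the test through their fluoxetine pools alone. Flt1 was at 104 and 115 in fluoxetine pools and at 94.3 and 90.0 in control pools. Kdr, the other Vegfa kinase, was under 100 in all arrays. With 100 asked of all 4 arrays Ret and Flt1 were not tested and Tgfbr2 passed (adjusted p = 0.0445 by limma). The largest difference on the low side was Fgfr3, an FGF receptor typical of astrocytes, at 1555 and 1318 in fluoxetine pools and 1896 and 1994 in control pools (log2 -0.44 ± 0.10, adjusted p = 0.110 by limma). The 10 tested astrocyte markers lay the other way in sum, at 81693 and 83394 in fluoxetine pools and 67015 and 69222 in control pools. Most of that sum was Slc1a2, Gja1 and Aldoc, and none of these passed at its brightest probeset. Slc1a2 was at log2 0.11 ± 0.06 and Gja1 at 0.27 ± 0.11 there, while Slc1a2 rose at another probeset (0.76 ± 0.10, adjusted p = 0.0494 by limma). By limma 3 rose, Gfap (log2 2.78), Vim (1.78) and Aqp4 (1.07), and 0 fell, beside 1.31% and 0.554% of all tested genes. A log2 fold change above 0 was seen at 8 (43.5% of all tested genes), while Slc1a3 (-0.06 ± 0.07) and Aldoc (-0.08 ± 0.09) lay below it. Fgfr1 was at log2 0.42 ± 0.10 (adjusted p = 0.114) and Fgfr2 at -0.03 ± 0.06 (adjusted p = 0.788). The Vegfa receptor Flt1, with its control pools under 100, did not pass (adjusted p = 0.179 by limma). With any 1 of the 4 arrays left out, neither receptor was called, nor any other probeset of the whole table (0 by limma, with 2657 to 3515 at an unadjusted p under 0.05).

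**Figure D5:**
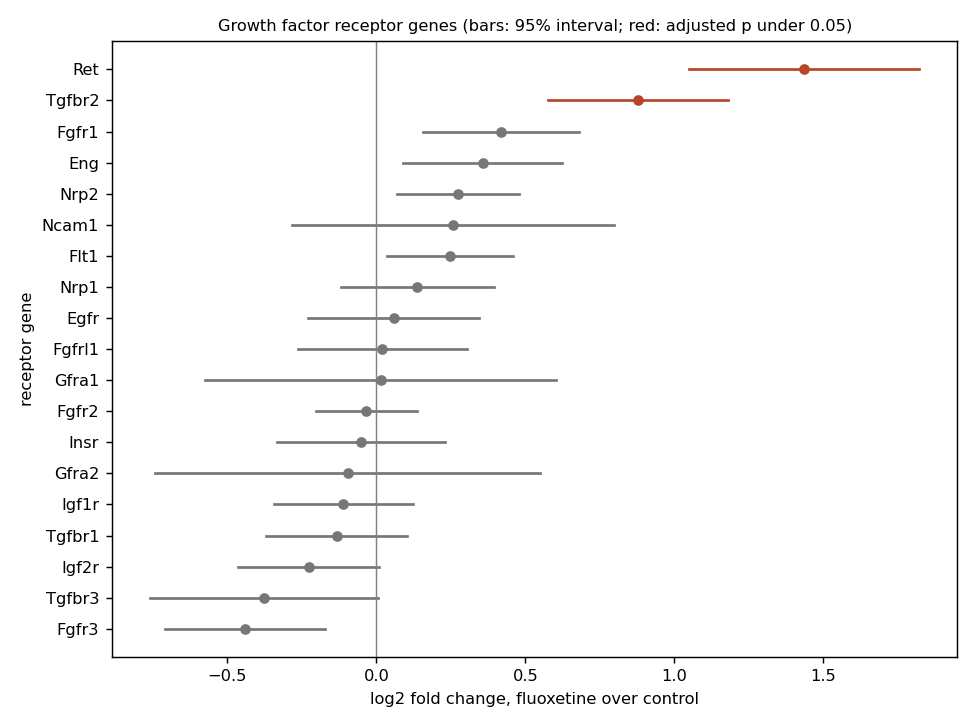
Log2 fold change of fluoxetine over control (horizontal axis) with 95% intervals for the 19 tested receptor genes at their brightest probesets (vertical axis), calls in red. Ret, with control pools under 100, and Tgfbr2 stand apart on the high side, with Fgfr3 lowest at -0.44.

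Growth factor family genes related to the members were mostly too dim, with 23 of 36 annotated genes under 100 in all arrays and 10 tested. The list was not limited to secreted ligands, and Fgf11, Fgf12, Fgf13 and Fgf14 are among the 10. Of those 10, 1 rose and 0 fell (1.31% and 0.554% of all tested genes did), 1 was higher and 4 lower without overlap (23.6% and 32.7%), and the median was -0.05. The riser was Pdgfc, a platelet-derived growth factor, at 423 and 441 in fluoxetine pools and at 255 and 284 in control pools (log2 0.68 ± 0.08, adjusted p = 0.0448 by limma). Its other tested probeset was at 0.35 ± 0.07 and did not pass (adjusted p = 0.0915). Vegfb was at 323 and 243 in fluoxetine pools and at 397 and 402 in control pools, on the other side from Vegfa, and did not pass (log2 -0.51 ± 0.15, adjusted p = 0.150). Tgfa, a ligand of Egfr, was also on the low side (log2 -0.53 ± 0.17, adjusted p = 0.181).

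Genes for proteins that release or present growth factors gave 0 calls by limma, with 1 gene of each list at an unadjusted p under 0.05. Of 5 tested processing and shedding genes all had a log2 fold change above 0 (43.5% of all tested genes did), with a median of 0.10. Without overlap 2 were higher and 0 lower. Plat, tissue plasminogen activator, was at 959 and 819 in fluoxetine pools and at 525 and 559 in control pools (log2 0.71 ± 0.10, adjusted p = 0.0558). The proprotein convertase gene Pcsk5 (log2 0.19 ± 0.26, adjusted p = 0.700) and the sheddase gene Adam10 (log2 0.10 ± 0.08, adjusted p = 0.522) followed. Of 12 tested heparan sulfate proteoglycan and modifying enzyme genes, 6 were higher and 2 lower without overlap (23.6% and 32.7% of all tested genes were), with a median of 0.09. The largest differences were those of Gpc1 (log2 0.35 ± 0.15, adjusted p = 0.251), Hs6st2 (log2 -0.32 ± 0.15, adjusted p = 0.291) and Sdc2 (log2 0.30 ± 0.07, adjusted p = 0.108).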

How the data were processed

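Hippocampal RNA pools of 2 fluoxetine and 2 control groups of mice were grouped by their sample titles. The deposited values are linear intensities that the authors made with GCRMA (ArrayAssist software, version not stated), per the labels' design text. GCRMA pulls dim probesets towards a floor. Values were taken to log2 with no pseudocount. After 64 control probesets were left out, 16938 that reached 100 in at least 2 arrays were tested with limma 3.58.1 in R 4.3.3 (lmFit, eBayes, no covariate, two-sided) and adjusted over all of them by Benjamini-Hochberg, at a threshold of 0.05. With 2 arrays a group, the smallest exact permutation p is 0.333. Group means are geometric. Gene names come from the platform annotation; all 21 member probesets matched the reference gene table by gene number. Genes that are no members stand by their brightest tested probeset. Members and lists were chosen with earlier results of these data known. All members were described; from each pathway list the called genes and the 3 largest differences were named, further receptors for their ligands, and marker genes as examples. Pools are described as separately processed biological replicates. On simulated data for this comparison (16938 probesets, 200 changed, 10 runs) the procedure recovered 5.2% of changes of log2 0.5 and 80.2% of log2 1. Alternatives were other filters, scalings, a floor, a pseudocount of 32, moderation settings, a pool block, probeset classes, the submitters' 2-fold rule and leaving out each array.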

Additional observations from a re-analysis of the deposited data

How the results depend on the processing

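No growth factor probeset was called under any alternative except limma's trend and robust settings, where 1 was, Nrn1. Over 13 alternatives its log2 difference stayed between 0.38 and 0.60, that of Igf1 between 0.25 and 0.41 and that of Igf2 between -1.04 and -0.06. Signs turned at 4 probesets. Fgf9 at 1420795_at (-0.03) came to 0.00045 with median centring and 0.022 with quantile normalization, and to between -0.056 and 0.0011 with an array left out. Tgfb2 at 1450923_at (-0.02) came to 0.0086 with median centring and 0.0066 with quantile normalization, and to between -0.29 and 0.26 with an array left out, and the other Tgfb2 probesets to between -0.15 and 0.38 (1423250_a_at) and between -0.11 and 0.39 (1450922_a_at). The other 131 member values kept their direction and their side of the threshold.

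Over all 16938 tested probesets 291 were called, against 532 with trend and robust settings and 134 by the 2-fold rule. Without probesets that can match several transcripts it was 193 of 11987, and with no intensity filter 0 of 45037 (5396 at an unadjusted p under 0.05). With any array left out the range was 0 to 0, with 2657 to 3515 at an unadjusted p under 0.05. In the pathway lists 5 of 89 tested genes were called, beside 1.86% of all tested genes. Ret, which entered the test through its fluoxetine pools alone, is among the 5. The count was 4 with values under 100 raised to 100, 8 with quantile normalization and 8 with trend and robust settings. It was 2 of 61 without those probesets, 1 by the 2-fold rule and 0 with no filter.

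With the pool number as a replicate block, 9 probesets of the table, 0 growth factor probesets and 0 pathway genes were called, and Nrn1 had an adjusted p of 0.141. Deviations of same-numbered pools correlated at 0.14 over probesets. Whether a number marks a shared batch is not stated in the labels; Ttr was higher in pool 1 and Vegfa in pool 2 of both groups. With 2 pools per group and 200 changed probesets, the simulation recovered 5.2% of changes of log2 0.5, near the size seen for Nrn1. In the real arrays 22.5% of tested probesets had an unadjusted p under 0.05 by limma. That setting differs, so the simulated rate does not carry over to Nrn1. Of genes near that size, Ndrg1 (-0.55) and Abcc9 (0.52) passed, while Dusp4 (0.49) and Pfkfb3 (0.51) did not. The cause of the other shifts was not tested.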
